A study of Homo sapiens with 6 samples.

Results

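The genes described here encode the proteasome and the factors that help to build it. They were taken by name, as protein-coding genes whose symbol begins with PSMA, PSMB, PSMC, PSMD, PSME, PSMF or PSMG followed by a digit. The deposited tables hold 47 such genes of 26704 genes in all, and 47 of the 49 that GENCODE release 29 lists under the rule. The other two, PSMA8 and PSMB11, were not analysed here. The 47 comprise 7 PSMA, 10 PSMB, 6 PSMC, 14 PSMD, 4 PSME, 1 PSMF and 4 PSMG genes, and PSMC3IP, a meiotic recombination factor that shares only the name and is given apart. All 47 had a mean normalised read count of at least 10 in every table, so none was lost to the filter on low values.

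The proteasome degrades proteins that carry ubiquitin chains. Its 20S core is a barrel of alpha rings, which gate the entry, around beta rings, which hold the catalytic sites. The 19S cap binds ubiquitin, removes it and feeds the unfolded protein into the core with a ring of ATPases. In blood cells, and more so after interferon, the catalytic subunits PSMB5, PSMB6 and PSMB7 can be replaced by PSMB8, PSMB9 and PSMB10, and the cap by the PSME1 and PSME2 activator, to give the immunoproteasome, which favours peptides for presentation on MHC class I. When proteasome activity is limited, the transcription factor NFE2L1 is processed to its active form and drives proteasome genes together, a feedback known as the bounce-back response.

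Poly-A RNA was sequenced from SKM-1 cells, an established human myeloid leukaemia line. There were 6 libraries: 2 untreated, 2 treated with BOR, 1 treated with VEM (vemurafenib, a RAF kinase inhibitor) and 1 treated with VEM+BOR. The labels do not spell out BOR, and they state neither doses nor times. All groups share the same line, with no other named agent. The labels do not tie the libraries of a group to separate cultures, so the p-values measure only how far these libraries differ, and that difference may be technical.

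Each library held 17252404 to 18507606 reads in genes. Of 9 myeloid markers, 9 were found in all tables, with a summed level of 5350 to 15800 TPM (reads per kilobase of gene length, scaled to the same sum over all genes in each library); 0 of 3 T cell markers were listed in all tables, and the summed B cell, epithelial and erythroid markers reached at most 16.5, 1.01 and 0.651 TPM. The lowest myeloid sums were those of VEM and VEM+BOR, 6000 and 5350, where the granule genes PRTN3, ELANE and MPO were lower. In bulk RNA, fewer cells of a type and less RNA per cell cannot be told apart. The library labelled BOR 2 stood apart from the other libraries, so BOR results are given for both libraries and for each alone. The 3 comparisons share the same untreated libraries, so they are not independent of each other.

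Values below are normalised read counts with all 6 libraries on 1 scale unless stated. A log2 change is the treated mean minus the untreated mean on the log2(value + 1) scale within the authors' table, tested with limma (two-sided) over all genes of that table. A gene is said to lie above or below when every treated library lies outside the range of both untreated libraries on that side.

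The first feature of these genes was a difference between the untreated libraries themselves. All 47 genes were higher in untreated 2 than in untreated 1, by 0.10 to 0.93 on the log2 scale with a median of 0.55. Over all 15462 genes on this scale, 50.4% were higher in untreated 2 and the median difference was 0.00. The reads in the 47 genes made up 0.703% of untreated 1 and 0.898% of untreated 2, against 0.663% and 0.815% of BOR 1 and BOR 2, 0.696% of VEM and 0.688% of VEM+BOR. When libraries were scaled to their totals instead, 44 of the 47 were higher in untreated 2, with a median of 0.35 where the median of all genes was -0.19. The direction was the same under both scalings for these 44.

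The size of the untreated difference followed the class of gene. The median was 0.72 for the 19S ATPases, 0.62 for the 20S assembly chaperones, 0.61 for the 19S non-ATPase subunits and 0.55 for both the alpha and the constitutive beta subunits of the core. It was 0.30 for the 19S assembly chaperones and 0.33 for the other activators and the inhibitor. It was 0.11 for the 5 immunoproteasome genes, whose members PSME1, PSME2 and PSMB9 differed by 0.10, 0.10 and 0.11, while PSMB10 differed by 0.39 and PSMB8 by 0.42. The largest differences were those of the ATPase PSMC3 at 0.93 and the chaperone PSMG1 at 0.91. These differences between the untreated libraries are the spread against which the treated libraries are set below.

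**Figure D1:**
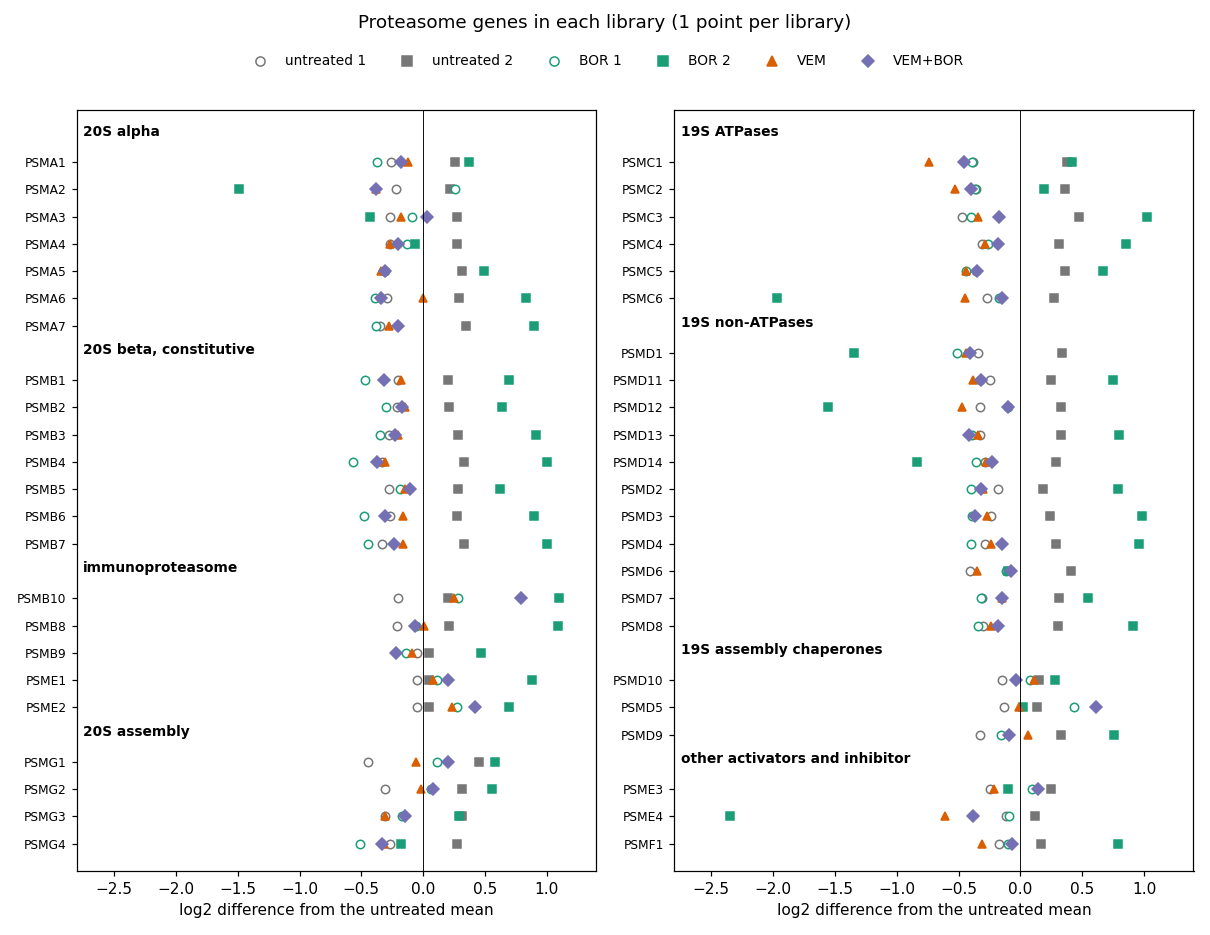
Log2 difference of each gene from the mean of the untreated libraries (horizontal axis), with 1 point per library, for the 46 proteasome genes by class. The grey points of untreated 2 lie to the right of those of untreated 1 for every gene, and the filled green squares of BOR 2 lie farthest out on both sides, from -2.35 for PSME4 to 1.10 for PSMB10.

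No proteasome gene passed the threshold in any comparison. With limma and Benjamini-Hochberg adjustment over all genes, 0 of the 47 passed an adjusted p of 0.05 for BOR (background 0.0% of 15382 genes), for VEM (0.0446% of 15689 genes) or for VEM+BOR (0.192% of 15606 genes). None had an unadjusted limma p under 0.05 either. The smallest unadjusted limma p-values were 0.126 for PSMD1 under BOR, 0.0787 for PSMC1 under VEM and 0.0583 for PSMB10 under VEM+BOR. edgeR and DESeq2, run on the recovered reads of the BOR and VEM+BOR tables, also called 0 of the 47. In the authors' deposited table every adjusted p of these genes was 1, with the smallest unadjusted p at 0.151 for PSMD1 under BOR, 0.0852 for PSMC1 under VEM and 0.0791 for PSMB10 under VEM+BOR.

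The change was larger than the untreated difference for 12 of the 47 genes under BOR (background 52.7%), for 2 under VEM (34.6%) and for 6 under VEM+BOR (37.2%). In all 3 comparisons this share was under that of all genes. The count sets the change against the untreated difference and is not the count of genes above or below. It tends to be lower where the untreated difference is large, as it was for these genes (median 0.55 on 1 scale). The immunoproteasome genes accounted for 5 of the 12 under BOR, for 1 of the 2 under VEM and for 4 of the 6 under VEM+BOR. Their median untreated difference was the smallest of the classes, 0.11 on 1 scale, which tends to raise this count. Under BOR all 5 changes were above 0, but BOR 1 alone was not above the untreated libraries for PSMB8 and PSMB9. Under VEM the genes were PSME2, which was higher, and PSME4, which was lower. Under VEM+BOR, PSMB10, PSME1 and PSME2 were higher and PSMB9 was lower.

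Scaling moved the BOR medians together. With libraries scaled to their totals, the BOR median of all genes was -0.26 in place of 0.04. The median was then -0.08 for the constitutive beta subunits, -0.23 for the 19S ATPases, -0.10 for the 19S non-ATPases, -0.07 for the 19S assembly chaperones and -0.11 for the 20S assembly chaperones, so these medians changed sign, while each stayed above that of all genes. The medians of the 20S alpha subunits and of the other activators and inhibitor, 0.00 before, were -0.30 and thus below that of all genes. The immunoproteasome median stayed above 0, at 0.20. With TMM scaling of the BOR table the 19S ATPase median was -0.01, and the alpha and other activator medians were -0.08 each. The VEM and VEM+BOR medians kept their sign in every class with libraries scaled to their totals.

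**Figure D2:**
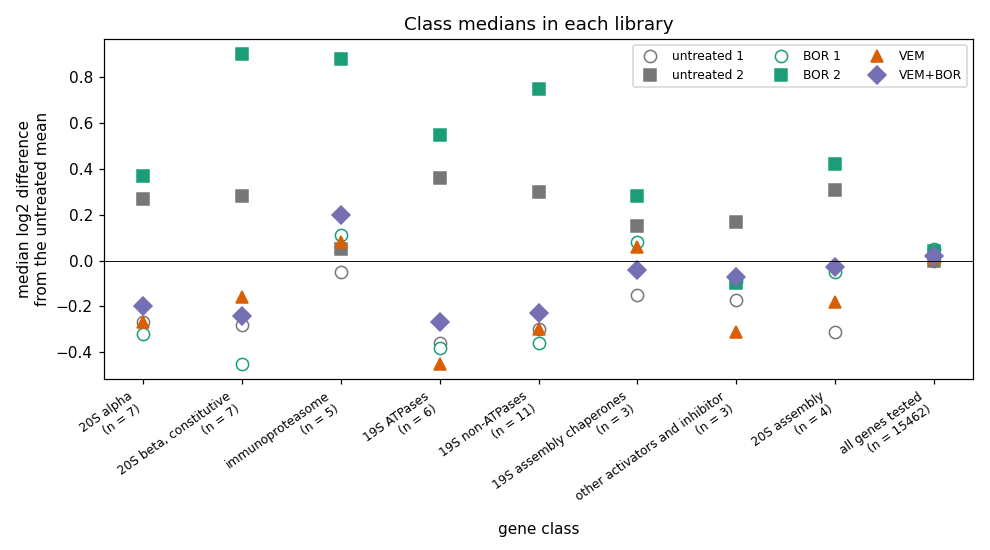
Median log2 difference from the untreated mean (vertical axis) for each class of proteasome genes and for all genes tested (horizontal axis, with the number of genes), 1 point per library. The untreated points are spread for the core and cap classes and close together for the immunoproteasome, and BOR 2 stands highest in every class except the other activators and inhibitor.

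The immunoproteasome genes had the smallest median untreated difference of the classes, 0.11, although PSMB8 and PSMB10 differed by 0.42 and 0.39. This ranking is for the main scaling and was not repeated by class with libraries scaled to their totals. The class was also the only one with members above both untreated libraries in all 3 comparisons. Those members were PSMB10, PSME1 and PSME2. Over all genes found in the 3 comparisons, 6.21% of 15129 lay above in all of them, so 3 of 47 is near the background and the count is not a result about these genes. PSMB8 and PSMB9, the other two catalytic subunits, did not. The positions of PSMB10, PSME1 and PSME2 were the same with libraries scaled to their totals and, in BOR and VEM+BOR, with TMM scaling.

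PSMB10, the subunit that takes the place of PSMB7 in the immunoproteasome, lies at chr16:67934502-67937087 (GRCh38, minus strand). It stood at 436 and 573 in untreated 1 and 2, 608 and 1071 in BOR 1 and 2, 596 in VEM and 864 in VEM+BOR. All 4 treated libraries were above both untreated libraries, VEM and BOR 1 narrowly. The log2 change was 0.69 (SE 0.51) for BOR, 0.25 (SE 0.39) for VEM and 0.78 (SE 0.39) for VEM+BOR, with limma p-values of 0.223, 0.536 and 0.0583 and adjusted limma p-values of 0.968, 1.0 and 1.0. Of its exon bases 34.8% are shared with the read-through gene AC040162.1, which stood at 27.7 to 70.6 in the 6 libraries; its part in the result was not tested.

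PSME1 and PSME2 encode the subunits of the 11S activator and are neighbours on chromosome 14, at chr14:24136158-24138967 (plus strand) and chr14:24143362-24147570 (minus strand). PSME1 stood at 1932 and 2068 in the untreated libraries, 2156 and 3678 in the BOR libraries, 2109 in VEM and 2304 in VEM+BOR. PSME2 stood at 1710 and 1839 in the untreated libraries, 2137 and 2866 in the BOR libraries, 2078 in VEM and 2367 in VEM+BOR. For both genes the treated libraries cleared an untreated range of about 0.10 on the log2 scale, and BOR 2 was the highest. The log2 changes for BOR, VEM and VEM+BOR were 0.50 (SE 0.48), 0.07 (SE 0.37) and 0.19 (SE 0.37) for PSME1. They were 0.48 (SE 0.44), 0.22 (SE 0.37) and 0.40 (SE 0.37) for PSME2. None of these changes passed the limma test.

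PSMB8, which replaces PSMB5, stood at 3726 and 4975 in the untreated libraries, 4137 and 9194 in the BOR libraries, 4341 in VEM and 4113 in VEM+BOR. Only BOR 2 left the untreated range. PSMB9, which replaces PSMB6, stood at 2604 and 2805 in the untreated libraries, 2460 and 3738 in the BOR libraries, 2548 in VEM and 2316 in VEM+BOR. It was below both untreated libraries in BOR 1, VEM and VEM+BOR and above them in BOR 2. With libraries scaled to their totals, both BOR libraries were below and VEM lay between the untreated libraries. PSMB8 and PSMB9 lie next to each other at chr6:32840717-32844703 and chr6:32844136-32859585 on opposite strands and share exon bases with each other and with PSMB8-AS1; without a strand-marking step in the protocol, reads of the shared bases cannot be assigned to either. The median log2 change of the 5 genes was 0.50 for BOR (0.11 for BOR 1 alone and 0.88 for BOR 2 alone), 0.07 for VEM and 0.19 for VEM+BOR, where the medians of all genes were 0.04, 0.00 and 0.01. Scaled to library totals the BOR median was 0.20, while that of all genes was -0.26.

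The promoters of these genes were read from RefSeq (GRCh38.p14), as windows of 250 bases before to 50 after each start. Of the 47 genes, 41 matched, with 51 windows. The core of the interferon-stimulated response element, written as GAAA, any 2 bases and GAAA, was searched on both strands. This motif was added after the windows had been seen. It was found in 7 of the 51 windows (13.7%), against 3.57% of all 35116 windows. All windows cover 27305 genes, among them genes not tested here, so they are not matched to the 51. The 7 windows belong to 7 genes, and 4 of these are immunoproteasome genes, PSMB8, PSMB10, PSME1 and PSME2; PSMB9 had no match in its window. Of these genes, PSMB10, PSME1 and PSME2 are the ones above both untreated libraries throughout, a count near the background. A link between motif and position was not tested. The stretches of 30 bases around the match are shown 5′ to 3′ on the strand of the gene, with the match in capitals.
PSMB10: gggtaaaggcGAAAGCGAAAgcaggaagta
PSME2: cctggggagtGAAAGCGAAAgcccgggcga
PSME1: gccctaccgcTTTCGCTTTCccttcgcggt
PSMB8: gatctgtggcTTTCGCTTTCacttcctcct
PSMG4: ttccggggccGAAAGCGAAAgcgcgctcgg
PSMB4: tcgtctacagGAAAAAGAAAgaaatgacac
PSMA4: atagtgaagaGAAAATGAAAggagagcgcc
The stretches lie at chr16:67936852-67936881 for PSMB10, chr14:24146619-24146648 for PSME2, chr14:24136189-24136218 for PSME1, chr6:32844032-32844061 for PSMB8, chr6:3258904-3258933 for PSMG4, chr1:151399495-151399524 for PSMB4 and chr15:78540155-78540184 for PSMA4. In PSMB10, PSME2 and PSMG4 the match is GAAAGCGAAA, and in PSMB8 and PSME1 it is the reverse complement of those letters, TTTCGCTTTC. The match begins 21 bases before the start in PSMB10, 28 before it in PSME2, 4 before it in PSMB8 and at base 6 after it in PSME1. A match describes the letters only. PSMG4, PSMB4 and PSMA4, which also hold one, lay above both untreated libraries in none of the 3 comparisons. PSMG4 lay below them in VEM and VEM+BOR, and PSMB4 lay below them in VEM+BOR.

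The letters TGACNNNGC, the core of the antioxidant response element class that NFE2L1 and NFE2L2 bind, were found in 15 of the 51 windows (29.4%), against 13.3% of all windows. Again all windows are not matched to the 51, and the difference was not tested. The 15 genes spread over the core, the cap, the activators and the assembly factors. PSMD1 was picked after its values were seen, as the gene below both untreated libraries in every comparison. A link between its motif and its position was not tested. The stretches of PSMD1 and of the 3 immunoproteasome genes with a match are shown in the same way.
PSMB9: gggcggggctGCCTCGTCActtgtctcggg
PSME1: atggcagggcTGACCCCGCctcctccatcc
PSME2: ccctggactgTGACCCAGCcagcaccgcct
PSMD1: ggcggcctgaggaggcgacTGACTGAGCag
They lie at chr6:32854034-32854063 for PSMB9, where the match is on the opposite strand, chr14:24136098-24136127 for PSME1, chr14:24146766-24146795 for PSME2 and chr2:231056887-231056916 for PSMD1. The letters TTCNNNGAA, a gamma-activated site, were in 7 windows (13.7%, against 7.66%), and CCAAT was in 21 (41.2%, against 34.6%). Matches to these motifs may overlap one another in a window.

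Partner genes of the immunoproteasome that interferon also regulates were described beside it. Of 7 described (TAP1, TAP2, TAPBP, IRF1, NLRC5, B2M and ERAP1), 4 lay above both untreated libraries for BOR (background 11.7%), 5 for VEM (30.3%) and 7 for VEM+BOR (30.1%). In no comparison did any lie below, and 0 passed the limma test. Some changes were small, at 0.03 (SE 0.37) for TAP1 and 0.08 (SE 0.43) for IRF1 under VEM, and 0.03 (SE 0.65) for B2M under VEM+BOR. The largest was 1.24 (SE 0.71) for IRF1 under BOR. These counts were not repeated under other scalings. TAP1, a chain of the peptide transporter, stood at 2106 and 2101 in the untreated libraries, 2520 and 3526 in the BOR libraries, 2153 in VEM and 2359 in VEM+BOR. IRF1, a transcription factor of the interferon response, stood at 285 and 264 in the untreated libraries, 332 and 1264 in the BOR libraries, 290 in VEM and 492 in VEM+BOR.

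**Figure D3:**
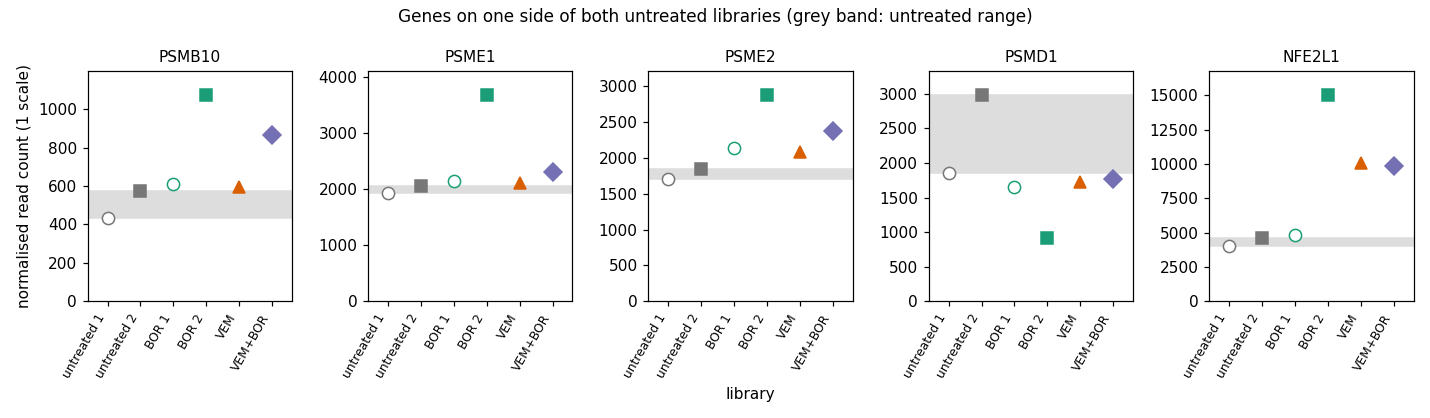
Normalised read count on 1 scale (vertical axes, from 0) in each library (horizontal axes) for PSMB10, PSME1, PSME2, PSMD1 and NFE2L1, with the untreated range as a grey band. The treated libraries lie above the band for 4 of the genes and below it for PSMD1, and BOR 2 is the farthest from it in each panel.

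The share of each immunoproteasome subunit in its catalytic pair was computed on levels per gene length. PSMB8 made up 46.8% and 44.3% of PSMB8 plus PSMB5 in the untreated libraries, 47.9% and 53.7% in the BOR libraries, 48.3% in VEM and 46.3% in VEM+BOR. PSMB9 made up 43.4% and 36.3% of PSMB9 plus PSMB6 in the untreated libraries, 45.6% and 32.9% in the BOR libraries, 41.2% in VEM and 41.3% in VEM+BOR. Neither share kept to one side of the untreated libraries in the treated ones. PSMB10 made up 15.6% and 13.3% of PSMB10 plus PSMB7 in the untreated libraries, 21.9% and 15.3% in the BOR libraries, 18.4% in VEM and 25.6% in VEM+BOR. That share was above both untreated libraries in BOR 1, VEM and VEM+BOR, and between them in BOR 2, where PSMB7 was also high. PSMB10 was the minor partner of its pair in all 6 libraries, with and without division by gene length. Of its exon bases 34.8% are shared with AC040162.1, and of those of PSMB7 0.0% are shared. The part of shared bases in the PSMB10 share was not tested. For the other pairs the leading partner depends on that division: without it PSMB8 made up 57.4% to 66.3% of its pair and PSMB9 50.9% to 64.0%.

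**Figure D4:**
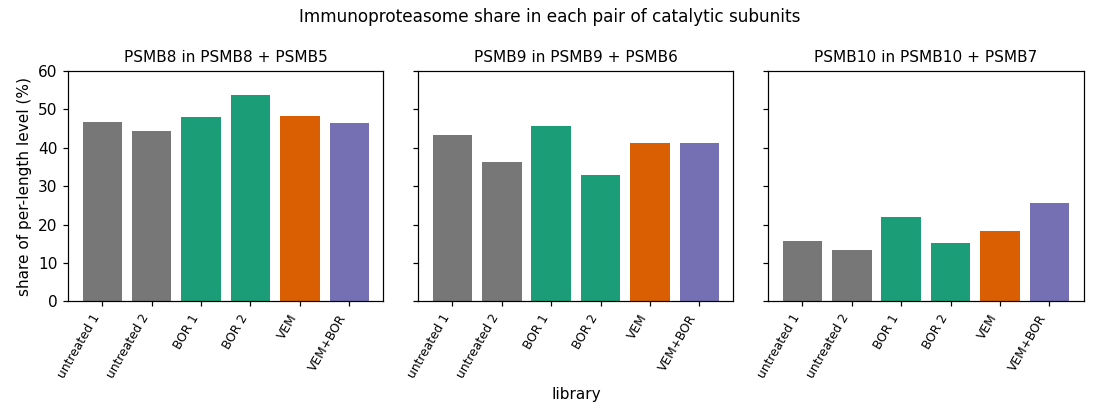
Share of the immunoproteasome subunit in the summed per-length level of its catalytic pair (vertical axes, percent) in each library (horizontal axes, 1 bar per library, no error bars as each bar is 1 library). The PSMB10 share runs from 13.3% in untreated 2 to 25.6% in VEM+BOR, and the other pairs stay between 32.9% and 53.7%.

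Among the constitutive beta subunits of the core, PSMB1 to PSMB7, no gene lay above or below in BOR when both libraries were counted (background 11.7% above and 8.24% below). BOR 1 alone was below both untreated libraries for 6 of the 7 (background 20.1%), and BOR 2 alone was above them for 7 of 7 (44.2%). These counts for single libraries were not repeated by class under other scalings. Over all 47 genes, the BOR 2 count above was 33, and 18 with libraries scaled to their totals (background 23.5%). PSMB5, the chymotrypsin-like subunit, stood at 2495 and 3686 in the untreated libraries, 2653 and 4675 in the BOR libraries, 2741 in VEM and 2812 in VEM+BOR. PSMB6, the caspase-like subunit, stood at 1600 and 2316, 1381 and 3599, 1717 and 1552 in the same order. PSMB7, the trypsin-like subunit, stood at 2272 and 3592, 2090 and 5695, 2555 and 2417. In each of the 3 the lone VEM library lay between the untreated libraries.

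The class median of the beta subunits was 0.22 for BOR, -0.17 for VEM and -0.25 for VEM+BOR. The BOR value was -0.45 for BOR 1 alone and 0.90 for BOR 2 alone, so its sign depended on the library. The changes ran from 0.11 for PSMB1 to 0.28 for PSMB7 under BOR, from -0.32 for PSMB4 to -0.15 for PSMB5 under VEM, and from -0.38 for PSMB4 to -0.12 for PSMB5 under VEM+BOR. Under VEM+BOR, PSMB1, PSMB4 and PSMB6 lay below both untreated libraries. PSMB4, a non-catalytic subunit, stood at 6992 and 11090 in the untreated libraries and at 6829 in VEM+BOR, so it cleared the range by little.

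Of the 7 alpha subunits, which form the outer rings, 0 lay above or below in BOR, 2 lay below in VEM (background 27.6%) and 3 in VEM+BOR (27.9%). The class medians were 0.00, -0.28 and -0.21 for BOR, VEM and VEM+BOR. PSMA7, the most abundant subunit of the class per length, stood at 6171 and 10050 in the untreated libraries, 6060 and 14690 in the BOR libraries, 6477 in VEM and 6874 in VEM+BOR, so that BOR 1 and BOR 2 lay on opposite sides of the untreated range. PSMA5 stood at 2075 and 3202 in the untreated libraries, 2059 and 3626 in the BOR libraries, 2037 in VEM and 2073 in VEM+BOR, below untreated 1 by a small margin in VEM and VEM+BOR. PSMA2 had the lowest change of the class in each comparison, -0.61 (SE 0.77), -0.38 (SE 0.59) and -0.40 (SE 0.59), at 70.1 and 95.1 in the untreated libraries, 98.1 and 28.4 in the BOR libraries, 62.7 in VEM and 62.4 in VEM+BOR. PSMA3 stood at 2214 and 3234 in the untreated libraries, 2508 and 1993 in the BOR libraries, 2361 in VEM and 2724 in VEM+BOR, outside the untreated range in BOR 2 alone. The highest changes were 0.26 for PSMA7 under BOR, -0.01 for PSMA6 under VEM and 0.01 for PSMA3 under VEM+BOR.

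Levels per length differed widely within the core. The untreated mean was 842 TPM for PSMA7 and 2.84 for PSMA2 and 2.37 for PSMA6, with a class median of 83.9. The beta subunits ran from 156 for PSMB2 to 762 for PSMB4, with a median of 298. Subunits of the core are present in equal number in the assembled particle, so the low values of PSMA2 and PSMA6 stand apart from their class. Of their exon bases, 34.6% and 14.1% are shared with other annotated genes, AC010132.3 and MRPL32 among those of PSMA2 and AL121594.1 for PSMA6; the part of shared bases in these low values was not tested.

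The 6 ATPases of the 19S base, PSMC1 to PSMC6, unfold the substrate. None lay above or below in BOR, 4 lay below in VEM (background 27.6%) and 3 in VEM+BOR (27.9%). The class medians were 0.07, -0.45 and -0.28, and the VEM value was the lowest class median of the 3 comparisons, beside an untreated difference of 0.72. PSMC1 stood at 734 and 1245 in the untreated libraries, 731 and 1282 in the BOR libraries, 573 in VEM and 696 in VEM+BOR, with log2 changes of -0.74 (SE 0.40) for VEM and -0.47 (SE 0.40) for VEM+BOR. The VEM value lay 0.36 below untreated 1 on the log2 scale, a distance under the untreated difference of 0.76. Of the exon bases of PSMC1, 75.8% are shared with NRDE2 on the other strand, which stood at 140 to 260 in the 6 libraries.

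PSMC6 stood at 1374 and 1994 in the untreated libraries, 1476 and 420 in the BOR libraries, 1212 in VEM and 1495 in VEM+BOR. BOR 2 was far below the rest, while BOR 1 lay inside the untreated range. The log2 change for BOR was -1.07 (SE 0.69). PSMC3 had the highest BOR change of the class, 0.31 (SE 0.64), at 2697 and 5144 in the untreated libraries and 2816 and 7530 in the BOR libraries. PSMC2 stood at 2415 and 3996 in the untreated libraries, 2400 and 3551 in the BOR libraries, 2151 in VEM and 2358 in VEM+BOR, and PSMC5 at 2204 and 3629, 2090 and 4496, 2080 and 2215 in the same order. Both lay below both untreated libraries in VEM. On this joint scale the VEM+BOR value of PSMC2 was below untreated 1, and that of PSMC5 differed little from it. The highest changes under VEM and VEM+BOR were -0.30 for PSMC4 and -0.16 for PSMC6. The log2 change was under 0 for all 6 genes in VEM and in VEM+BOR.

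The 11 non-ATPase subunits of the 19S cap form its scaffold, ubiquitin receptors and deubiquitinase. Of these, 2 lay below in BOR (background 8.24%), 6 in VEM (27.6%) and 5 in VEM+BOR (27.9%), and 0 lay above. The class medians were 0.20, -0.30 and -0.24. PSMD1, a scaffold subunit at chr2:231056864-231172827 (plus strand), was the one gene below both untreated libraries in all 3 comparisons, where 4.01% of all genes were. At 1 of 47 the count is under this background and is not a result about these genes. PSMD1 stood at 1853 and 2974 in the untreated libraries, 1646 and 921 in the BOR libraries, 1731 in VEM and 1772 in VEM+BOR. That position was the same with libraries scaled to their totals. Apart from BOR 2 the treated libraries lay just under untreated 1 and far under untreated 2. The log2 changes were -0.93 (SE 0.52), -0.45 (SE 0.39) and -0.42 (SE 0.39), with adjusted limma p-values of 0.968, 1.0 and 1.0.

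PSMD14, the deubiquitinase of the cap, stood at 2099 and 3154 in the untreated libraries, 2008 and 1437 in the BOR libraries, 2122 in VEM and 2201 in VEM+BOR, and was the other gene below in BOR. PSMD12 stood at 1011 and 1593, 1187 and 430, 918 and 1181 in the same order and had the lowest VEM change of the class, -0.47. PSMD13 had the lowest VEM+BOR change, -0.43, at 2112 and 3350 in the untreated libraries and 1993 in VEM+BOR. The highest changes were 0.30 for PSMD3 under BOR, -0.16 for PSMD7 under VEM and -0.09 for PSMD6 under VEM+BOR. Among the abundant subunits, PSMD2, the other large scaffold, stood at 8385 and 10820 in the untreated libraries, 7206 and 16470 in the BOR libraries, 7758 in VEM and 7637 in VEM+BOR. PSMD3 stood at 4763 and 6649, 4304 and 11070, 4657 and 4350 in the same order, and PSMD11 at 3175 and 4496, 2996 and 6333, 2912 and 3031. These 3 genes were below both untreated libraries in BOR 1, VEM and VEM+BOR and above them in BOR 2. PSMD4, a ubiquitin receptor, had the highest per-length level of the class, 403 TPM.

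PSMD5, PSMD9 and PSMD10 are chaperones of 19S assembly and leave the finished particle. PSMD5 stood at 670 and 800 in the untreated libraries, 989 and 744 in the BOR libraries, 726 in VEM and 1121 in VEM+BOR. It was above both untreated libraries in VEM+BOR and in BOR 1, and between them in BOR 2 and VEM. The VEM+BOR change was 0.60 (SE 0.37), larger than the untreated difference of 0.26, with a limma p-value of 0.121 and an adjusted limma p-value of 1.0. PSMD10, also known as gankyrin, stood at 808 and 992 in the untreated libraries and at 870 to 1091 in the treated ones, with changes of 0.19 for BOR and 0.10 for VEM. PSMD9 was low, at 119 and 187 in the untreated libraries and 133 to 254 in the treated ones, with changes of 0.30 for BOR and -0.10 for VEM+BOR.

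The chaperones of 20S assembly are PSMG1 to PSMG4, which pair to build the alpha ring. PSMG1 stood at 1471 and 2761 in the untreated libraries, 2180 and 3011 in the BOR libraries, 1939 in VEM and 2311 in VEM+BOR. Its partner PSMG2 stood at 491 and 757, 636 and 896, 603 and 646 in the same order. Both lay inside the untreated range in BOR 1, VEM and VEM+BOR and above it in BOR 2. PSMG3 stood at 926 and 1423, 1022 and 1403, 926 and 1038, and PSMG4 at 627 and 917, 533 and 668, 608 and 602. PSMG4 had the lowest change in each comparison, -0.34, -0.33 and -0.35 (SE 0.48, 0.39 and 0.39). POMP, which chaperones the maturing core, stood at 1924 and 2991 in the untreated libraries, 2239 and 2609 in the BOR libraries, 2137 in VEM and 2358 in VEM+BOR, inside the untreated range throughout.

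The remaining activators are PSME3, which caps the nuclear proteasome, and PSME4, which serves in DNA repair and histone turnover, and PSMF1 is an inhibitor of the core. PSME3 stood at 4563 and 6458 in the untreated libraries and at 4678 to 5984 in the treated ones, always inside the untreated range. PSME4 stood at 1507 and 1769 in the untreated libraries, 1539 and 319 in the BOR libraries, 1068 in VEM and 1255 in VEM+BOR. It had the lowest log2 change of its class in each comparison, -1.22 (SE 0.78) for BOR, -0.62 (SE 0.37) for VEM and -0.39 (SE 0.37) for VEM+BOR, and lay below both untreated libraries in VEM, VEM+BOR and BOR 2. PSMF1 stood at 1054 and 1328, 1106 and 2052, 954 and 1125 in the same order, below in VEM and above in BOR 2. PSMC3IP stood at 332 and 395 in the untreated libraries and at 340 to 753 in the treated ones.

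The BOR libraries disagreed over these genes. Against both untreated libraries, BOR 1 alone lay above for 5 genes (background 30.4%) and below for 20 (20.1%), and BOR 2 alone lay above for 33 (44.2%) and below for 7 (41.5%). Both libraries together left 3 genes above (11.7%) and 2 below (8.24%). The median difference from the untreated mean over the 47 genes was -0.30 in BOR 1 and 0.64 in BOR 2. Scaled to library totals, the BOR 2 median was 0.04, where that of all genes was -0.55, and the count above in BOR 2 was 18 (background 23.5%) and the count below 17 (background 61.0%). Without BOR 1, the BOR changes of PSMD1, PSMC6, PSME4 and PSMD12 were -1.35, -1.97, -2.35 and -1.56, while the median of the 47 genes was 0.65. This fit assumes that the lone BOR 2 library varies like the untreated ones, so its calls are not read as results about these genes. Without BOR 2, the median of the 47 genes was -0.29.

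Within BOR 2 the direction went with the base composition of the transcript. The 7 genes below both untreated libraries in BOR 2 were PSMA2, PSMA3, PSMC6, PSMD1, PSMD12, PSMD14 and PSME4, and their longest protein-coding transcripts had a GC content of 36.8% to 45.3%, with a median of 40.7%. The 33 genes above had a GC content of 37.2% to 60.1%, with a median of 52.1%. Across the 47 genes the difference in BOR 2 and the GC content had a Pearson's r of 0.66 and a Spearman's rho of 0.70, and in BOR 1 of -0.12 and -0.17. Over 12743 protein-coding genes the BOR 2 values were 0.49 and 0.52, and the BOR 1 values were -0.29 and -0.36. Transcript length, on the log2 scale, also went with the BOR 2 difference. Its Pearson's r and Spearman's rho were -0.44 and -0.48 for the 47 genes and -0.29 and -0.31 for the 12743. The points share the same 3 libraries and genes are not independent replicates, so these are descriptions. The part of base composition or transcript length in the BOR 2 values was not tested.

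**Figure D5:**
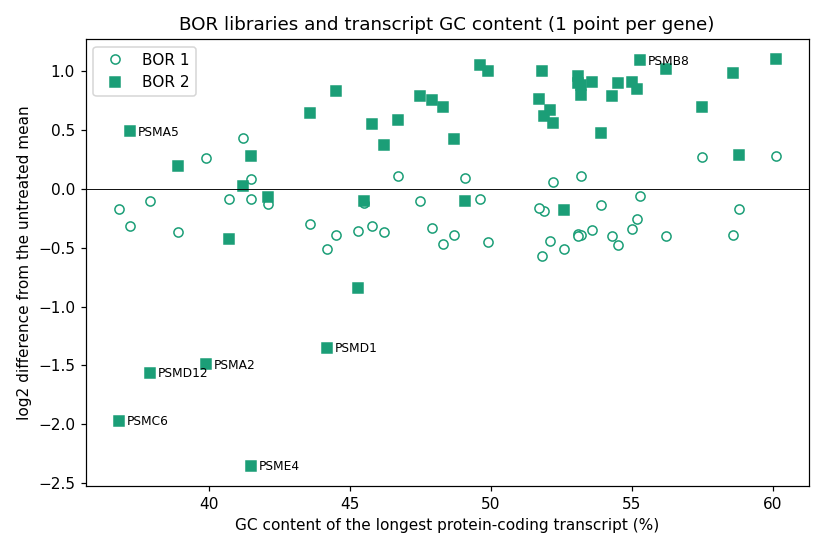
Log2 difference from the untreated mean (vertical axis) against the GC content of the longest protein-coding transcript (horizontal axis, percent) for the 47 genes in BOR 1 (open circles) and BOR 2 (filled squares). Of the 5 genes with a GC content under 40%, 2 lie above 0 in BOR 2, and of the 22 with at least 50%, 21 do. Over all protein-coding genes tested, not drawn here, 223 of 1888 and 4612 of 6112 did. PSMC6 and PSME4 are among the lowest BOR 2 points.

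VEM and VEM+BOR, with 1 library each, gave 3 genes above (background 30.3%) and 16 below (27.6%) for VEM, and 4 above (30.1%) and 17 below (27.9%) for VEM+BOR. The share above was under the background in both, and the share below, 34.0% and 36.2% of the 47, was somewhat over it. With libraries scaled to their totals the count below in VEM+BOR was 27 of 47, where the background was 29.8%, so that this count depends on the scaling. The median change over the 47 genes was -0.25 for VEM and -0.20 for VEM+BOR. Both values depend on which untreated library they are set against: the VEM median was -0.52 without untreated 1 and 0.05 without untreated 2, and the VEM+BOR median was -0.50 and 0.09. On the 1 scale, the median difference of the 47 genes from the untreated mean was -0.24 in VEM and -0.18 in VEM+BOR, beside -0.28 in untreated 1 and 0.28 in untreated 2.

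The regulators and cofactors outside the named families were described from a list of 23 genes. Of these, 3 lay above and 0 below in BOR (background 11.7% and 8.24%), 5 above and 6 below in VEM (30.3% and 27.6%) and 8 above and 3 below in VEM+BOR (30.1% and 27.9%), and 0 passed the limma test. In the untreated pair 21 of the 23 were higher in untreated 2, with a median of 0.35.

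NFE2L1, the transcription factor of the bounce-back response, had the largest change of the listed regulators for VEM and for VEM+BOR. For BOR the change of UCHL5, a deubiquitinase, was larger in size, at -1.28 (SE 0.98). NFE2L1 stood at 4046 and 4618 in the untreated libraries, 4825 and 14980 in the BOR libraries, 10090 in VEM and 9859 in VEM+BOR. All treated libraries were above both untreated libraries, BOR 1 by little and the other three by a wide margin. The log2 change was 0.98 (SE 0.63) for BOR, 1.22 (SE 0.41) for VEM and 1.18 (SE 0.42) for VEM+BOR, with unadjusted limma p-values of 0.172, 0.00854 and 0.0101. After adjustment over all genes the limma p-values were 0.968, 1.0 and 0.805, so it did not pass. With libraries scaled to their totals NFE2L1 passed for VEM, with a log2 change of 1.28 and an adjusted limma p-value of 0.0295, and for VEM+BOR, with 1.16 and 0.0432. The BOR change of NFE2L1 was 1.80 without BOR 1 and 0.16 without BOR 2, and each value rests on 1 BOR library. Among the alternatives, NFE2L1 passed for VEM and VEM+BOR only with libraries scaled to their totals. Under that scaling more genes of all kinds passed too, as given at the end. Over its alternatives with a test, the NFE2L1 change was above 0 throughout.

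Only the transcript was measured, while NFE2L1 is known to be controlled largely at the level of its protein. DDI2, the protease that cleaves NFE2L1, stood at 1309 and 1285 in the untreated libraries, 1756 and 265 in the BOR libraries, 908 in VEM and 1467 in VEM+BOR. NGLY1, which removes its sugar chains, stood at 809 and 986, 917 and 1610, 802 and 746 in the same order. NFE2L2, a related factor, stood at 718 and 951, 753 and 561, 601 and 730, below both untreated libraries in VEM and in BOR 2.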

How the data were processed

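The 6 SKM-1 libraries were grouped by their treatment labels into untreated (2), BOR (2), VEM (1) and VEM+BOR (1). The labels number no replicates, so numbers were given in accession order and no libraries were paired. The submitters' processing notes name edgeR 3.22.5, DESeq2 1.20.0, featureCounts 1.5.0-p3, HISAT2 2.0.5 and CASAVA without their roles. Their genome build is one not given in the sources used here; coordinates and symbols of the 47 genes equal GENCODE 29 (GRCh38). The authors deposited 3 tables, each with a normalised signal per gene and library, made from read counts with 1 scaling factor for each library. They also deposited their own log2 fold changes and p-values. Whole reads were recovered for 100% of values (tolerance 0.001); in the VEM column the step is so near 1 that this has no check, and VEM entered no count test.

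The members, lists and motifs were chosen with earlier results of these data known. Some listed genes are not reported here. The test, limma 3.58.1 (R 4.3.3) with its trend option, used log2(value + 1) of genes with a mean of at least 10, Benjamini-Hochberg adjusted over all genes of a table, threshold 0.05; it was tested on simulated data. With 1 library each, VEM and VEM+BOR take their spread from the untreated pair. Levels of all 6 libraries come from recovered reads on 1 scale by median-of-ratios factors. Per-length levels (TPM) divide by the deposited gene length and are scaled to an equal sum per library. Genes were named by class, as the highest and lowest change of each class in each comparison, plus a fixed set of catalytic, activator, assembly and regulator genes; PSMD1, PSMD14, UCHL5 and the interferon and NFE2L1-processing genes given singly were picked after their values were seen. Alternatives were other pseudocounts (0.5 and 4), no filter or a mean of at least 50, library total and TMM scaling, edgeR 4.0.16, DESeq2 1.42.0, all 6 libraries in 1 fit, and leaving out each replicate. Alternatives for the overlap counts, BOR 1 and BOR 2 alone, and the 6-library fit without a BOR library were chosen after seeing the data. With 17252404 to 18507606 reads per library, depth limits chiefly the low genes.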

Additional observations from a re-analysis of the deposited data

How the results depend on the processing

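The 2 untreated libraries and 1 or 2 treated libraries limit every comparison. No paired analysis was possible because the labels carry no replicate numbers. The number of proteasome genes past the threshold was 0 under every alternative except without BOR replicate 1; leaving out each replicate gave 0 to 4 for BOR. For VEM and VEM+BOR, leaving out an untreated library within the table left no residual degrees of freedom, so it gave values only. TMM, edgeR and DESeq2 were not run for VEM. Overlap counts were not repeated without replicates, and those of the partner and cofactor lists were not repeated under other scalings.

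Scaled to library totals, the BOR class medians were 0.20 for the immunoproteasome, -0.07 for the 19S assembly chaperones and -0.30 for the other activators and inhibitor. Under the same scaling 7 genes lay below in BOR (background 12.8%), 18 above (23.5%) and 17 below (61.0%) in BOR 2 alone, 6 above in VEM (33.7%) and 27 below in VEM+BOR (29.8%), and the BOR 2 median was 0.04. Leaving out each replicate moved the BOR medians from -0.26 to 0.26 (other activators and inhibitor), -0.45 to 0.90 (constitutive beta), 0.11 to 0.88 (immunoproteasome), -0.35 to 0.75 (19S non-ATPases) and -0.29 to 0.65 (all 47). The VEM immunoproteasome median ran from 0.01 to 0.22 and the VEM+BOR median of the 19S assembly chaperones from -0.21 to 0.23; in the fit of all 6 libraries without untreated replicate 2 they were 0.22 and 0.24. Without division by gene length, the untreated shares of PSMB8 and PSMB9 in their pairs were 58.6% and 58.3%. The cause of these moves was not tested.

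Over all genes, the number past the threshold for BOR was 0, 28 with DESeq2 and 4008 without BOR replicate 1. For VEM it was 7, 0 with no filter, 40 with library totals, 0 with all 6 libraries in 1 fit and 17 in that fit without BOR replicate 1. For VEM+BOR it was 30, 0 with no filter, 88 with library totals, 54 with TMM, 85 with edgeR, 64 with DESeq2, 0 with all 6 libraries in 1 fit and 50 in that fit without BOR replicate 1.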
